A study of Homo sapiens with 18 samples.

Results

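Haem oxygenase 1 (HMOX1) and 9 genes around it were followed in MOLM-13, a human acute monocytic leukaemia cell line, after 24 h or 4 h with 1 of 2 related compounds or with solvent. The genes were taken by name: HMOX1, the ferritin chains FTH1 and FTL, the glutathione synthesis genes GCLM and GCLC, the redox enzymes NQO1, TXNRD1 and ME1, and the transcription regulators NFE2L2 and BACH1. All 10 are among the 23713 rows of the deposited table and among the 11051 genes kept for comparison, which reached at least 1 FPKM in a group. The groups were cells given dTRIM24, IACS-9571 or DMSO, at 24 h and at 4 h each. IACS-9571 is a ligand of the bromodomains of TRIM24 and BRPF1, which read acetylated histones. dTRIM24 is a bifunctional degrader whose TRIM24-binding end is tied to a group that recruits the VHL ubiquitin ligase, which marks TRIM24 for destruction. DMSO is the solvent. The labels give no dose. They name 18 samples, 3 in each of 6 groups, and do not say whether these were separate cultures.

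The table holds 1 mean FPKM (read fragments scaled by transcript length and by sequencing depth) per gene and group. Values per sample were not analysed here. The means therefore carry no error, none of the differences could be tested, and how deeply the libraries were sequenced is unknown. Differences below are of log2(FPKM + 1) between group means, which understates the change of genes with few FPKM, and a gene is called past 2-fold at an absolute difference of at least 1. A spread that cells do not set is that of ERCC spike-ins, synthetic RNAs put into each sample. The 25 with at least 5 FPKM in each group were used, so their spread gives no scale for genes with fewer FPKM. Over the 9 comparisons the SD of the spike-in differences lay between 0.11 and 0.22, a scale for single RNAs that cannot stand in for a replicate error. Column totals lay between 771830 and 1058351 FPKM, while the spike-in medians lay between 29.7 and 31.7 FPKM. The columns were thus more alike in their spike-ins than in their totals. Of 11 myeloid leukaemia markers 10 were kept, with a summed level between 621 and 880 FPKM. LYZ, the highest, had between 302 and 458 FPKM. CD14, a monocyte marker, was not kept, at 0.154 to 0.208 FPKM, and CSF1R had 0.853 to 1.22 FPKM. All 11 erythroid markers, the globins HBA1 and HBB and the erythroid haem enzyme ALAS2 among them, stayed under 0.2 FPKM in each group. None of the 4 T cell and none of the 4 fibroblast markers was kept. Of 4 B cell markers PAX5 was kept, of 4 endothelial markers PECAM1, and of 4 epithelial markers KRT8 and KRT18.

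As background, NRF2, the protein of NFE2L2, switches on genes of antioxidant defence by binding antioxidant response elements together with a small MAF protein. Its level is set mainly after translation: KEAP1 carries it to degradation until oxidants or electrophiles modify KEAP1. BACH1 binds the same elements as a repressor and leaves them when it binds haem, and HMOX1 is among the best known genes under both. HMOX1 opens the haem ring into biliverdin, carbon monoxide and iron, and ferritin, built from the FTH1 and FTL chains, stores the iron. The translation of both ferritin mRNAs is held back by iron regulatory proteins, which bind a stem-loop near the start of each mRNA when iron is scarce.

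The sequence elements behind this can be seen in RefSeq's sequences around gene starts (250 bases before to 50 after, build GRCh38.p14, not the authors' hg19), which hold 12 windows for 8 of the 10 genes. HMOX1 and FTH1 were not matched. The core of the antioxidant response element was searched as TGACNNNGC on both strands. It stood in 4 of these 12 windows, of GCLM, ME1 and TXNRD1, and in 13.3% of all 35116 windows. Bases further from a start were not searched, so a gene without a match here can still hold the element. The AP-1 site TGACTCA, on both strands, stood in a window of ME1, where it lies inside the longer core, and in 1 of BACH1, and in 4.95% of all windows. All matches that lie wholly before the start are shown with the core in capitals, whatever the gene's difference between groups. Any link of the element to the differences was not tested. The cores of GCLM and of the second TXNRD1 window read on the opposite strand. A further match close to the start of ME1, and likewise of TXNRD1, is not shown.

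GCLM, chr1:93909440-93909480, minus strand: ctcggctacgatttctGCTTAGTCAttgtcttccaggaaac
ME1, chr6:83431164-83431204, minus strand: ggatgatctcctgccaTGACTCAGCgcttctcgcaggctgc
TXNRD1, chr12:104215664-104215704, plus strand: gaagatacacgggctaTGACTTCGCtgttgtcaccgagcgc
TXNRD1, chr12:104286914-104286954, plus strand: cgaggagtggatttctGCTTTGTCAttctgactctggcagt

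The iron responsive element was searched on the gene's own strand as its loop CAGTGN with a C 6 bases before it. It stood in the windows of FTL and ME1 and in 10.1% of all windows. Only the FTL match lies after the start, in the transcribed part, and its loop is shown in capitals. A match of letters is a description and not a bound site.

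FTL, chr19:48965331-48965358, plus strand: ctgtctcttgcttcaaCAGTGTttggac

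At 4 h the compounds parted on HMOX1. It had 1.74 FPKM with dTRIM24, 15.2 FPKM with IACS-9571 and 2.27 FPKM with DMSO. The IACS-9571 mean alone stood high, while the other 5 group means of the study lay between 1.42 and 2.37 FPKM, so that it was 6.40 times the highest of them. With IACS-9571 HMOX1 differed from DMSO by 2.31 on the log2 scale (a ratio of FPKM of 6.70), and only HMGCS1 and 5 near-identical SNAR genes had a larger difference among the 11051 kept genes. With dTRIM24 it differed from DMSO by -0.25, which is little more than the spike-in SD of 0.21, taken from spike-ins of at least 5 FPKM. Set directly against IACS-9571, HMOX1 with dTRIM24 stood at -2.56, the lowest of all 11051 kept genes. Even its highest mean was of middle rank: 55.9% of kept genes lay below it with IACS-9571 at 4 h, against 13.0% with DMSO. In RNA from many cells, more cells with the transcript and more of it per cell cannot be told apart.

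**Figure D1:**
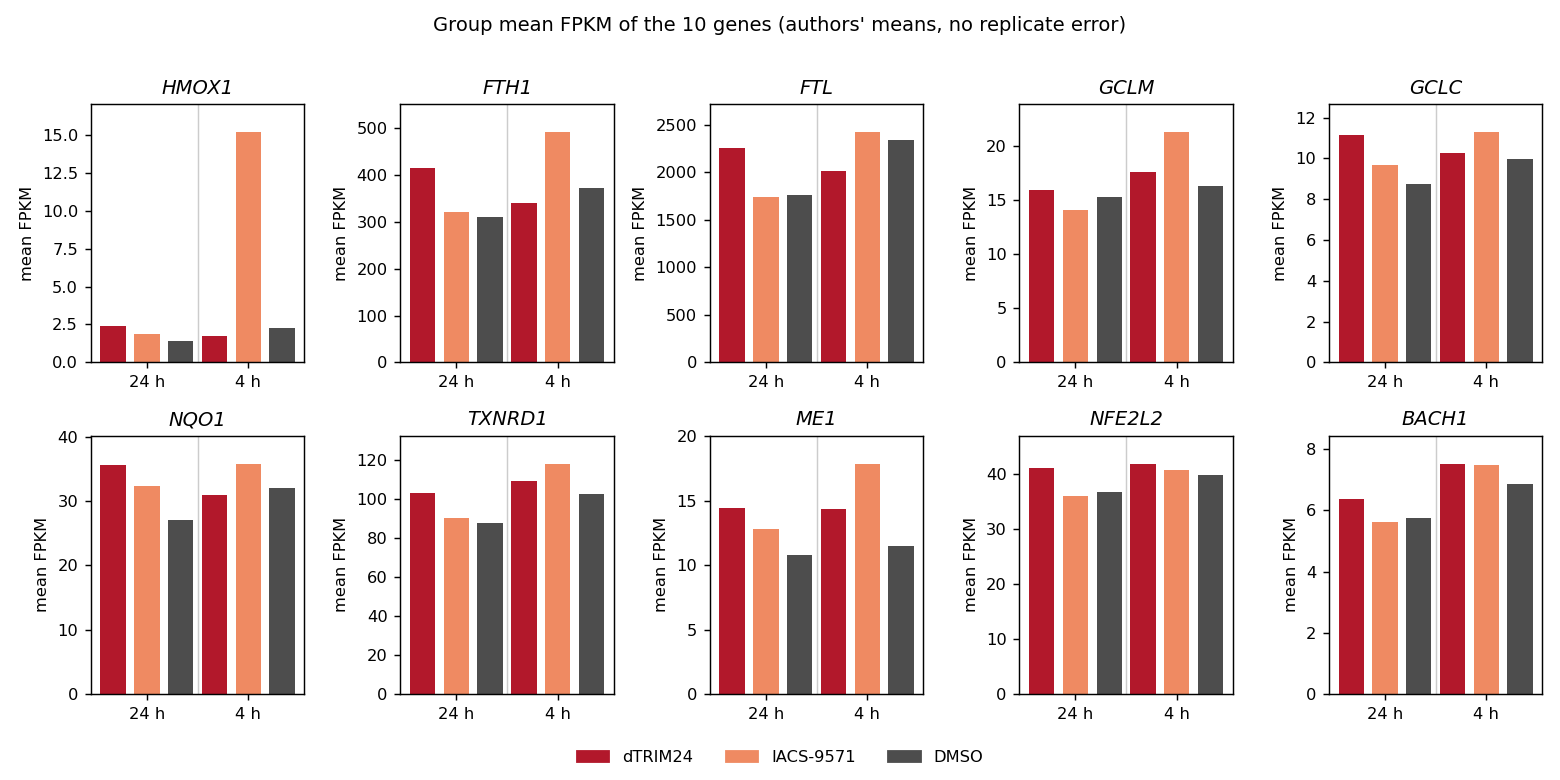
Mean FPKM of each of the 10 genes in the 6 groups, as the authors' means, with the 24 h groups left of the 4 h groups; each panel has its own axis from 0 and no error bar, since the table holds only means. HMOX1 stands at 15.2 FPKM with IACS-9571 at 4 h and between 1.42 and 2.37 FPKM in the other 5 groups.

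Only HMOX1 of the 10 genes passed 2-fold with IACS-9571 at 4 h against DMSO, in a comparison where 0.290% of kept genes did in either direction. All 10 were higher than DMSO (FTL and NFE2L2 not under every alternative scaling), by a median of 0.18, while 50.1% of kept genes were higher and their median was 0.00. No gene of the 10 passed 2-fold with dTRIM24 at 4 h against DMSO, where 0.688% of kept genes did. There 6 of 10 were higher, by a median of 0.05, against 47.8% of kept genes with a median of -0.01. Between dTRIM24 and IACS-9571 at 4 h HMOX1 alone passed, with 0.597% of kept genes past the bound. In that contrast 8 of 10 were lower with dTRIM24 and 2 higher, with a median of -0.23, where 42.5% of kept genes were higher and the median was -0.02. Both compounds were set against the same DMSO mean, and the direct contrast uses the same IACS-9571 mean again, so these comparisons are not independent.

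Of the ferritin chains, the heavy chain FTH1, which oxidises iron as it enters the shell, lay further above DMSO with IACS-9571 than the light chain, and the light chain further below DMSO with dTRIM24. FTH1 had 339 FPKM with dTRIM24, 492 FPKM with IACS-9571 and 371 FPKM with DMSO at 4 h. It was 0.40 above DMSO with IACS-9571, with 1.17% of kept genes higher, and -0.13 from DMSO with dTRIM24. Between the compounds it differed by -0.53, and only 16 kept genes lay lower. FTL, the light chain, which helps the iron core to form, had 2012 FPKM with dTRIM24, 2424 FPKM with IACS-9571 and 2344 FPKM with DMSO. Its difference from DMSO was 0.05 with IACS-9571, inside the spike-in SD of 0.11, and -0.22 with dTRIM24. The ratio of FTL to FTH1 was thus 5.93 with dTRIM24, 4.93 with IACS-9571 and 6.31 with DMSO. With dTRIM24 FTL passed the spike-in SD of 0.21 by little, and FTH1 lay inside it. After correction for GC content the 2 stood close with dTRIM24, at -0.13 for FTL and -0.11 for FTH1. Both ferritin genes have processed copies in the genome, so their values are uncertain in that measure. The copy FTH1P3 had 11.7, 15.7 and 13.5 FPKM in these 3 groups, in the same order as FTH1, and FTH1P18 and FTLP10 stayed near 0.1 FPKM.

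Glutathione is made in 2 steps, and the first is run by a ligase of a catalytic chain, GCLC, and a modifier chain, GCLM. GCLM had 17.6 FPKM with dTRIM24, 21.3 FPKM with IACS-9571 and 16.4 FPKM with DMSO at 4 h. It differed from DMSO by 0.36 with IACS-9571, with 1.38% of kept genes higher, and by 0.10 with dTRIM24. GCLC had 10.3 FPKM with dTRIM24, 11.3 FPKM with IACS-9571 and 9.97 FPKM with DMSO, a difference of 0.16 with IACS-9571 and 0.04 with dTRIM24. The modifier chain thus stood further above DMSO than the catalytic chain with IACS-9571.

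Among the redox enzymes ME1 had the largest differences from DMSO at 4 h. ME1, the cytosolic malic enzyme that yields NADPH, had 14.3 FPKM with dTRIM24, 17.9 FPKM with IACS-9571 and 11.5 FPKM with DMSO at 4 h. It lay above DMSO with both compounds, by 0.29 with dTRIM24 and 0.59 with IACS-9571, both more than the spike-in SD of that comparison. After correction for GC content the dTRIM24 value of ME1 was 0.19, inside the spike-in SD of 0.21. TXNRD1, the cytosolic thioredoxin reductase, had 109 FPKM with dTRIM24, 118 FPKM with IACS-9571 and 102 FPKM with DMSO, differences of 0.09 and 0.20 from DMSO. NQO1, a quinone reductase and a widely used readout of NRF2, had 31.0 FPKM with dTRIM24, 35.8 FPKM with IACS-9571 and 32.0 FPKM with DMSO. Its differences of -0.05 and 0.16 from DMSO were small beside that of HMOX1.

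The regulators' own mRNAs differed little at 4 h. NFE2L2 had 42.0 FPKM with dTRIM24, 40.9 FPKM with IACS-9571 and 40.0 FPKM with DMSO, differences of 0.07 and 0.03. BACH1 had 7.53 FPKM with dTRIM24, 7.50 FPKM with IACS-9571 and 6.87 FPKM with DMSO, differences of 0.12 and 0.11. They were the 2 genes that did not lie lower with dTRIM24 than with IACS-9571, at 0.04 and 0.01. These levels are of RNA and say nothing of the NRF2 or BACH1 proteins.

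**Figure D2:**
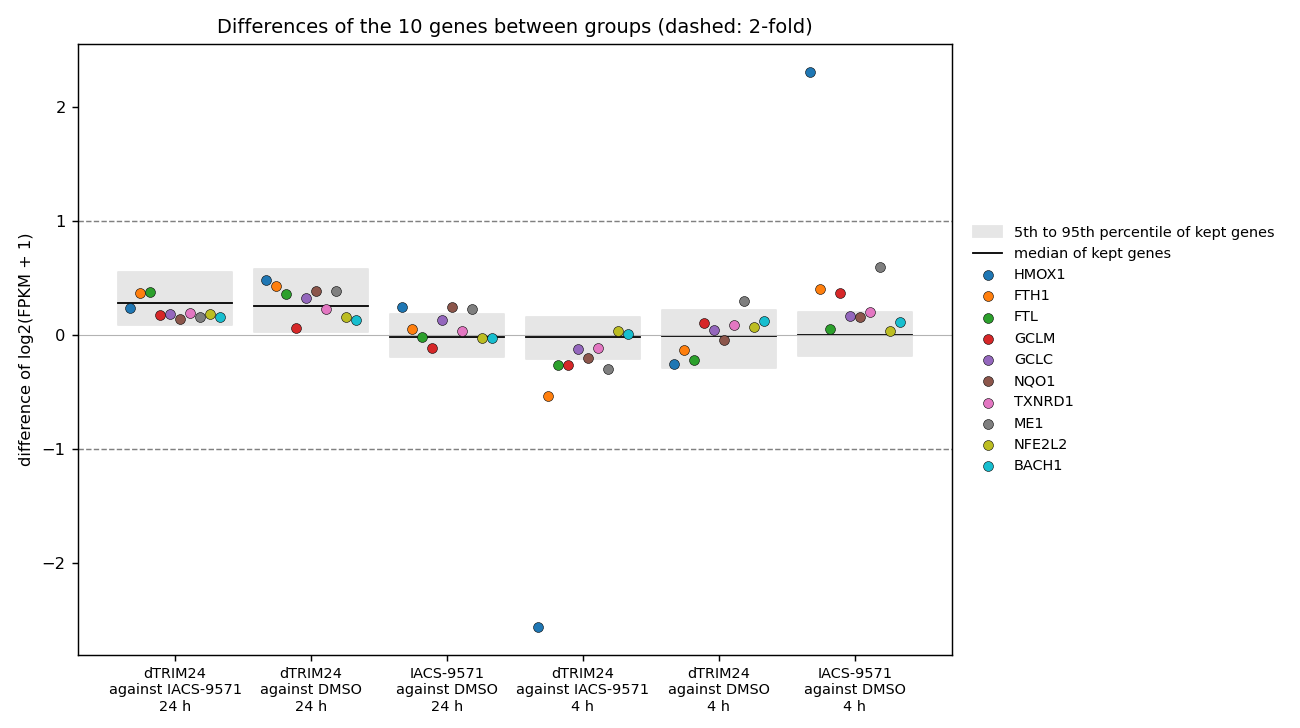
Differences of log2(FPKM + 1) of the 10 genes in the 6 comparisons of compounds, those at 24 h on the left, with the median of 11051 kept genes as a line and their 5th to 95th percentiles as a grey band. HMOX1 lies past the dashed 2-fold lines with IACS-9571 against DMSO at 4 h (2.31) and with dTRIM24 against IACS-9571 at 4 h (-2.56), and no other point does.

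The differences at 4 h ran with the GC content of transcripts across genes, with a Spearman rho of -0.39 for IACS-9571 against DMSO, -0.73 for dTRIM24 against DMSO and -0.62 for dTRIM24 against IACS-9571. Genes are not independent replicates, and all share the same 6 columns. HMOX1 and FTL have GC-rich transcripts (58.1% and 56.3%), GCLM, BACH1 and ME1 GC-poor ones (37.3%, 38.6% and 39.5%), against a median of 48.4%. With a cubic trend on GC content taken out, HMOX1 with IACS-9571 at 4 h stood at 2.35, ME1 at 0.54, FTH1 at 0.40 and GCLM at 0.31. With dTRIM24 against DMSO at 4 h HMOX1 then stood at -0.14, FTL at -0.13, GCLM at -0.03, GCLC at -0.02 and ME1 at 0.19, all inside the spike-in SD of 0.21, and the median of the 10 genes was -0.02.

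Other genes of the same pathways were set beside the 10, from 8 lists that share some genes with each other. No kept gene of any list passed 2-fold in these comparisons at 4 h. Of all kept genes 50.1% lay above DMSO with IACS-9571 and 47.8% with dTRIM24, with medians of 0.00 and -0.01. The GC trend (rho -0.39 with IACS-9571 and -0.73 with dTRIM24) was not taken out of the list values. Of 27 kept NRF2 targets other than the 10, 18 lay above DMSO with IACS-9571 and 9 below, with a median of 0.06. With dTRIM24 against DMSO 7 were higher and 20 lower, with a median of -0.13. With IACS-9571 the largest were OSGIN1, a stress-induced growth inhibitor, at 1.14 FPKM against 0.675 FPKM with DMSO (0.35), and PIR, at 10.6 FPKM against 8.49 FPKM (0.29). OSGIN1 reached 1 FPKM in this group alone, so it was kept and counted only through the group where it is high. PGD, an NADPH-yielding enzyme of the pentose phosphate pathway, followed at 193 FPKM against 160 FPKM with DMSO (0.27). SLC7A11, which imports cystine for glutathione, had 8.98 FPKM with dTRIM24, 8.66 FPKM with IACS-9571 and 7.05 FPKM with DMSO.

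Of 15 kept regulators of NRF2 and BACH1, 8 lay above and 7 below DMSO with IACS-9571, with a median of 0.02, and KEAP1 had 40.2 FPKM with dTRIM24, 43.6 FPKM with IACS-9571 and 44.8 FPKM with DMSO. The largest was NFE2, a relative of NFE2L2 in blood cells, at 18.3 FPKM with dTRIM24, 18.8 FPKM with IACS-9571 and 22.6 FPKM with DMSO. Among 16 kept genes of haem synthesis, breakdown and transport 6 were higher and 10 lower with IACS-9571, with a median of -0.03. HMOX2, the haem oxygenase made constitutively, had 30.8 FPKM with dTRIM24, 32.1 FPKM with IACS-9571 and 32.0 FPKM with DMSO. BLVRB, a biliverdin reductase, had 22.4 FPKM with dTRIM24, 26.0 FPKM with IACS-9571 and 28.2 FPKM with DMSO. The transporter FLVCR1, known as a haem exporter, stood above DMSO with both compounds, by 0.40 with dTRIM24 (9.58 FPKM) and by 0.43 with IACS-9571 (9.81 FPKM). SLC48A1, which moves haem out of lysosomes, had 4.42 FPKM with dTRIM24, 6.10 FPKM with IACS-9571 and 4.73 FPKM with DMSO. It thus had the order of HMOX1, with differences of -0.08 and 0.31 from DMSO.

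Of 15 kept genes of iron uptake, storage and export, 4 lay above and 11 below DMSO with IACS-9571, the highest by 0.17 (ACO1, an iron regulatory protein). Among 19 kept genes of glutathione synthesis and use 6 were higher and 13 lower, with a median of -0.07. In that list GLO1, the glyoxalase that uses glutathione to clear methylglyoxal, lay far from the rest: 438 FPKM with dTRIM24, 481 FPKM with IACS-9571 and 265 FPKM with DMSO, differences of 0.72 and 0.86. CHAC1, which degrades glutathione, had 3.89 FPKM with dTRIM24, 3.85 FPKM with IACS-9571 and 5.01 FPKM with DMSO. Of 14 thioredoxin and peroxiredoxin genes 3 were higher with IACS-9571 and none with dTRIM24, with medians of -0.07 and -0.12. Of all kept genes 50.1% and 47.8% were higher, and the GC trend was not taken out of these list values. PRDX2, a peroxiredoxin, had 193 FPKM with dTRIM24, 209 FPKM with IACS-9571 and 236 FPKM with DMSO. NADPH-supplying enzymes other than ME1 had 4 higher and 8 lower of 12 kept, with IDH1, the cytosolic isocitrate dehydrogenase, at 92.1 FPKM with dTRIM24, 96.1 FPKM with IACS-9571 and 74.5 FPKM with DMSO.

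Of 24 kept stress genes of other programmes (heat shock, the ATF4 response, metallothioneins and immediate early genes), 13 lay above and 11 below DMSO with IACS-9571, between -0.31 and 0.22, with a median of 0.03. The heat shock gene HSPA1B, uncertain because HSPA1A is nearly identical, had 36.6 FPKM with dTRIM24, 39.2 FPKM with IACS-9571 and 33.7 FPKM with DMSO, and DDIT4 had 201 FPKM, 239 FPKM and 206 FPKM in the same order. MT2A, a metallothionein, had 93.4 FPKM with dTRIM24, 111 FPKM with IACS-9571 and 119 FPKM with DMSO.

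**Figure D3:**
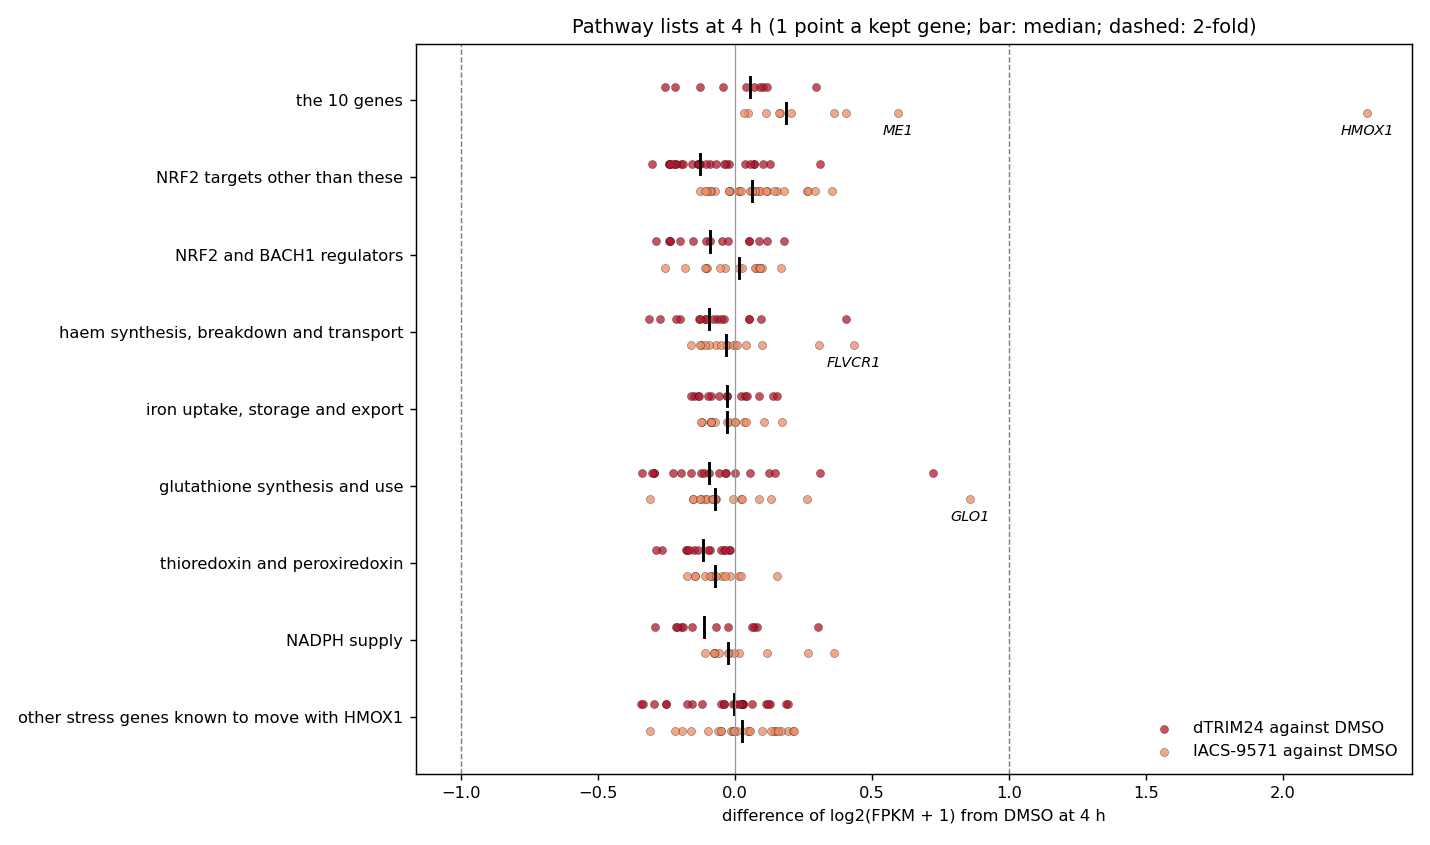
Differences of log2(FPKM + 1) from DMSO at 4 h for the 10 genes and the kept genes of 8 pathway lists, with dTRIM24 in the upper and IACS-9571 in the lower row of each list; a point is a gene, a black bar the median and the dashed lines 2-fold. HMOX1 with IACS-9571 (2.31) is the only point past 2-fold, and GLO1 (0.86 with IACS-9571 and 0.72 with dTRIM24) is the next.

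Over the 6 group means, the genes most like HMOX1 were sought among 110 genes with at least 5 FPKM in a group and a range of at least 1. By Pearson correlation of log2(FPKM + 1) these were TM7SF2 (r = 0.80), MVD (0.795), C6orf223 (0.77) and C14orf1 (0.77), as a description of 6 points. All 4 were highest with IACS-9571 at 4 h, which the choice by likeness to HMOX1 favours and which is no separate result. TM7SF2 reached 5 FPKM in that group alone (5.06 FPKM), so it was compared only through the group where it is high. The 4 genes also lay above DMSO with dTRIM24 at 4 h, by between 0.37 and 1.06, where HMOX1 lay at -0.25. C6orf223, for instance, had 6.55 FPKM with dTRIM24, 10.0 FPKM with IACS-9571 and 2.63 FPKM with DMSO.

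**Figure D4:**
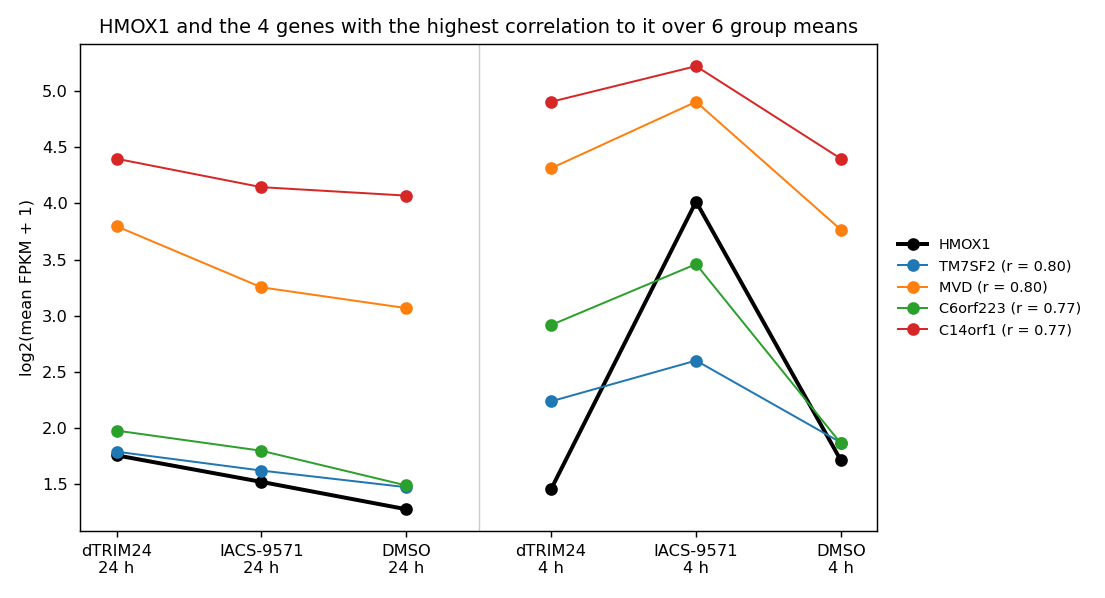
log2(mean FPKM + 1) of HMOX1 and of the 4 genes with the highest correlation to it over the 6 group means; points are group means, lines join the groups of a time, and 24 h is on the left. At 4 h HMOX1 peaks with IACS-9571 and lies below its DMSO mean with dTRIM24, while the other 4 lie above theirs with both compounds.

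At 24 h none of the 10 genes passed 2-fold between compounds. With IACS-9571 against DMSO, where 0.172% of kept genes passed, 6 were higher and 4 lower, with a median of 0.05, against 42.6% of kept genes higher and a median of -0.02. With dTRIM24 against DMSO, where 0.199% passed, all 10 were higher, but so were 96.8% of kept genes: the median of the 10 was 0.34 and that of all kept genes 0.26. Between dTRIM24 and IACS-9571, where 0.217% passed, all 10 were higher with dTRIM24, as were 98.4% of kept genes, with medians of 0.19 and 0.28. Values relative to the median of all kept genes are therefore given for dTRIM24 at 24 h.

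HMOX1 had 2.37 FPKM with dTRIM24, 1.86 FPKM with IACS-9571 and 1.42 FPKM with DMSO at 24 h. The 4 h peak was thus no longer seen with IACS-9571, where HMOX1 stood 0.24 above DMSO. With dTRIM24 it stood 0.48 above DMSO, or 0.23 relative to all genes, and 0.11 with the GC trend taken out (rho across genes 0.61 in this comparison). FTH1 had 416 FPKM with dTRIM24, 321 FPKM with IACS-9571 and 309 FPKM with DMSO, 0.17 above DMSO relative to all genes with dTRIM24. FTL had 2260.2 FPKM with dTRIM24, 1746 FPKM with IACS-9571 and 1766 FPKM with DMSO, 0.10 on that relative scale with dTRIM24. With the GC trend taken out FTH1 stood at 0.16 and FTL at 0.007.

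NQO1 and HMOX1 had nearly equal differences from DMSO with IACS-9571 at 24 h, the largest of the 10 genes, while in plain ratios of FPKM HMOX1 stood higher (1.31 against 1.19 for NQO1). NQO1 had 35.7 FPKM with dTRIM24, 32.3 FPKM with IACS-9571 and 27.1 FPKM with DMSO, which is 0.24 above DMSO with IACS-9571 (1.81% of kept genes were higher) and 0.13 relative to all genes with dTRIM24. ME1 had 14.4 FPKM with dTRIM24, 12.8 FPKM with IACS-9571 and 10.8 FPKM with DMSO, 0.23 above DMSO with IACS-9571 and 0.13 relative to all genes with dTRIM24. These 2 passed the spike-in SD of 0.12 with IACS-9571 at 24 h, as did GCLC by little, at 0.13. HMOX1 lay past it too, but at 1.86 against 1.42 FPKM it was below the 5 FPKM asked of the spike-ins, so this SD is no scale for it. GCLC had 11.2 FPKM with dTRIM24, 9.69 FPKM with IACS-9571 and 8.74 FPKM with DMSO, 0.06 relative to all genes with dTRIM24.

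GCLM had 16.0 FPKM with dTRIM24, 14.1 FPKM with IACS-9571 and 15.3 FPKM with DMSO at 24 h. It stood at -0.11 with IACS-9571, inside the spike-in SD of 0.12. With dTRIM24 it was 0.06 above DMSO, which is -0.20 relative to all genes and, after removal of the GC trend, -0.09. The ratio of GCLM to GCLC was 1.43 with dTRIM24, 1.45 with IACS-9571 and 1.75 with DMSO. TXNRD1 had 103 FPKM with dTRIM24, 90.1 FPKM with IACS-9571 and 87.8 FPKM with DMSO. NFE2L2 had 41.1 FPKM with dTRIM24, 36.1 FPKM with IACS-9571 and 36.7 FPKM with DMSO. BACH1 had 6.38 FPKM with dTRIM24, 5.61 FPKM with IACS-9571 and 5.75 FPKM with DMSO. With dTRIM24 TXNRD1 stood at -0.03, NFE2L2 at -0.10 and BACH1 at -0.13 relative to all genes. With the GC trend taken out TXNRD1 turned to 0.02, and NFE2L2 stood at -0.06 and BACH1 at -0.03.

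Among the pathway genes at 24 h, GLO1 again stood above DMSO with both compounds, at 363 FPKM with dTRIM24 and 337 FPKM with IACS-9571 against 249 FPKM. SLC7A11 had 8.24 FPKM with dTRIM24, 6.82 FPKM with IACS-9571 and 5.48 FPKM with DMSO, the largest of the 27 NRF2 targets with IACS-9571 (0.27). Of those 27, 16 were higher and 11 lower with IACS-9571, with a median of 0.02, where 42.6% of kept genes were higher. With dTRIM24 all 27 were higher than DMSO, as were 96.8% of kept genes, with a median of 0.31 against 0.26 for all kept genes. HMOX2 had 36.3 FPKM with dTRIM24, 28.4 FPKM with IACS-9571 and 24.9 FPKM with DMSO. CHAC1 had 4.97 FPKM with dTRIM24, 2.56 FPKM with IACS-9571 and 2.95 FPKM with DMSO. The FPKM with dTRIM24 in this paragraph include the shift of all kept genes. Relative to all genes SLC7A11 stood at 0.255 and CHAC1 at 0.34 with dTRIM24 against DMSO. GLO1 and HMOX2 are given in FPKM only.

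Between the times, the whole table moved with DMSO and with IACS-9571. The median of all kept genes at 24 h against 4 h was -0.22 with DMSO and -0.26 with IACS-9571, where 5.03% and 3.03% of kept genes were higher at 24 h, and 0.05 with dTRIM24, where 61.4% were. All 10 genes were lower at 24 h with DMSO (median -0.22) and with IACS-9571 (median -0.42), and 6 were higher with dTRIM24 (median 0.06). No gene of the 10 passed 2-fold with DMSO or dTRIM24, where 0.217% and 0.670% of kept genes did. HMOX1 alone passed with IACS-9571, where 0.443% did.

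With IACS-9571 HMOX1 had 1.86 FPKM at 24 h against 15.2 FPKM at 4 h, a difference of -2.50 (-2.24 relative to all genes), and only 6 kept genes lay lower. FTH1 had 321 FPKM at 24 h against 492 FPKM at 4 h, at -0.35 relative to all genes, and GCLM 14.1 FPKM against 21.3 FPKM, at -0.31. FTL and ME1 followed at -0.21 and -0.19 on that scale. NQO1 and GCLC, at 0.11 and 0.06, and NFE2L2, at 0.08, were not lower than the shift of all genes. These differences and those from DMSO at 4 h share the IACS-9571 mean at 4 h, so neither adds to the other.

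With DMSO HMOX1 had 1.42 FPKM at 24 h against 2.27 FPKM at 4 h, at -0.22 relative to all genes, and FTL 1766 FPKM against 2344 FPKM, at -0.19. This comparison ran with GC content across genes (rho -0.72), and with the trend taken out both HMOX1 and FTL stood at -0.06. The other 8 lay between -0.04 and 0.13 of the shift of all genes. With dTRIM24 HMOX1 had 2.37 FPKM at 24 h against 1.74 FPKM at 4 h, at 0.25 relative to all genes, and FTH1 416 FPKM against 339 FPKM, at 0.24. BACH1 had 6.38 FPKM at 24 h against 7.53 FPKM at 4 h, at -0.26, and GCLM 16.0 FPKM against 17.6 FPKM, at -0.18.

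In level, the order of the 10 genes was the same in 5 of the 6 groups: FTL, FTH1, TXNRD1, NFE2L2, NQO1, GCLM, ME1, GCLC, BACH1 and HMOX1, from high to low. With IACS-9571 at 4 h HMOX1 stood above BACH1 and GCLC instead. FPKM are scaled by transcript length, which allows this order between genes. The ferritin chains were among the most abundant RNAs of the cells, FTL with 99.4% to 99.5% of kept genes below it in each group and FTH1 with 97.5% to 98.3%. Of the 10 genes, 8 had their highest mean with IACS-9571 at 4 h, and NFE2L2 and BACH1 had theirs with dTRIM24 at 4 h. Of all kept genes 15.2% had their highest mean with IACS-9571 at 4 h and 23.8% with dTRIM24 at 4 h. Apart from HMOX1, whose highest mean was 10.7 times its lowest, the ratio of highest to lowest lay between 1.16 for NFE2L2 and 1.66 for ME1.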

How the data were processed

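RNA of MOLM-13 cells was sequenced; the samples had been matched on cell number before ERCC spike-ins went in, per the labels' protocols. The deposited values are FPKM, for which the submitters' processing notes name TopHat2, Cuffnorm and hg19; the software versions, the gene annotation and whether strand was used are not stated there. Each column name stands for the mean of a group and was matched to it by the sample titles. One treatment label gives 24 h for all samples, while titles and time points give 4 h or 24 h, which were followed. In the column of DMSO at 4 h 6066 rows hold 1 identical low value. The most frequent value of each column lay between 0.0914 and 0.105 FPKM. Spike-in medians lay between 29.7 and 31.7 FPKM.

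From these means, differences of log2(FPKM + 1) were computed for the 11051 genes with at least 1 FPKM in a group, without 92 spike-ins and 1720 small RNAs chosen by name. The limma test planned for values per library was not run, since means allow no test. Transcript GC content came from GENCODE 29 by symbol (97.7% of kept genes). Genes were named as the 10 members, up to 4 genes with the largest differences of a list in a comparison, and the 5 genes most correlated with HMOX1, of which 4 are given (some genes are not reported here); KEAP1, HMOX2, BLVRB, SLC48A1, SLC7A11, CHAC1, GLO1, HSPA1B, DDIT4, MT2A and the markers were also named beside other comparisons than those that chose them, with their values seen. The members and lists were chosen with earlier results of these data known. The steps were tested on simulated data. The work used Python 3.11.15 with pandas 2.3.3 and numpy 2.4.6, scipy 1.17.1 for correlations, and for plots matplotlib 3.10.9.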

Additional observations from a re-analysis of the deposited data

How the results depend on the processing

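Values were recomputed with a pseudocount of 0.1 or 0.5, with all genes or those from 5 FPKM up, after centring on the median, quantile normalization or rescaling to the spike-ins, with the shared low value subtracted, with a 1.5-fold threshold, and after removing a trend on GC content. HMOX1 kept its direction and its side of the 2-fold bound in the 3 comparisons where it passed, under each of them. These 3 comparisons share the IACS-9571 mean at 4 h and are not separate evidence. With a pseudocount of 0.1 its difference was 2.69 (IACS-9571 against DMSO, 4 h), -3.05 (dTRIM24 against IACS-9571, 4 h) and -2.96 (24 h against 4 h, IACS-9571), and with 0.5 it was 2.50, -2.81 and -2.73. With 0.1 it was also 0.37 (IACS-9571 against DMSO, 24 h), 0.71 (dTRIM24 against DMSO, 24 h) and -0.64 (24 h against 4 h, DMSO). With a 1.5-fold threshold 2 of the 10 genes (HMOX1 and ME1) passed in the IACS-9571 against DMSO contrast at 4 h, where 0.661% of kept genes did, and 2 (HMOX1 and FTH1) between the times for IACS-9571, where 2.50% did. Comparisons in which all genes shift depended on centring, quantile normalization and removal of the GC trend. Rescaling to the spike-ins moved none of the values by more than the spike-in SD of its comparison, and smaller shifts were not counted as moved. Over all alternatives the median of the 10 genes with IACS-9571 against DMSO at 4 h lay between 0.09 and 0.21. For dTRIM24 against DMSO at 24 h, HMOX1 was 0.23 with centring, 0.21 with quantile normalization and 0.11 without the GC trend, and the median of the 10 genes 0.083, 0.065 and 0.062. For dTRIM24 against IACS-9571 at 24 h, HMOX1 was -0.038, -0.033 and -0.14 in the same order, and the median -0.090, -0.12 and -0.041. For 24 h against 4 h with DMSO, HMOX1 was -0.22 with centring and -0.060 without the GC trend, and the median -0.0006 with centring and 0.050 with quantile normalization. For 24 h against 4 h with IACS-9571, HMOX1 was -2.24, -2.27 and -2.17, and the median -0.16, -0.11 and -0.16. In these, the shift of all genes is removed by construction. The spike-in SD of each comparison was the scale for a moved value. At 4 h, FTL and NFE2L2 changed sign under an alternative with IACS-9571 against DMSO, GCLM and GCLC with dTRIM24 against DMSO, and BACH1 between the compounds. At 24 h the sign changed for 3 genes with IACS-9571 against DMSO, 4 with dTRIM24 against DMSO and 8 between the compounds. Between the times it changed for 7 with DMSO, 3 with IACS-9571 and 1 with dTRIM24. No paired analysis was possible because the table holds 1 mean per group. For the same reason no replicate could be left out, and depth cannot be judged.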
